A study of Mus musculus with 128 samples.

Results

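Rbm11, Hspa13, Samsn1, Nrip1, Usp25, Btg3 and Chodl lie near the proximal end of the duplicated part of mouse chromosome 16 (MMU16), between Lipi and Ncam2. They were chosen from this stretch, which has 3 copies in Dp(16)1/Yey (Dp16) mice and 2 copies in Ts65Dn and Ts1Cje mice. The choice was made with earlier results of these data known. Of the 7 genes, 6 had a probe set among the 21225 on the arrays (Entrez gene IDs 224344 for Rbm11, 110920 for Hspa13, 67742 for Samsn1, 268903 for Nrip1, 30940 for Usp25 and 246048 for Chodl), and Btg3, an antiproliferative gene of the BTG/TOB family, was not analysed here. The stretch from Lipi to Ncam2 held 17 probe sets in all, so 11 others share the same copy numbers.

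RNA was hybridized to 128 Affymetrix Mouse Gene ST arrays from 65 animals, which were trisomic mice (TS) of 3 models of Down syndrome and their euploid littermates (Eup). Forebrains were taken at embryonic day (E) 15.5 from 6 Dp16 and 6 euploid embryos, 6 Ts65Dn and 7 euploid embryos, and 5 Ts1Cje and 5 euploid embryos, with both sexes in every group. Cortex, hippocampus and cerebellum were taken from 5 trisomic and 5 euploid males of each model at 6 to 7 months, and the same 10 males gave all 3 regions. Dp16 mice (B6129S-Dp(16Lipi-Zfp295)1Yey/J) carry an engineered tandem duplication on MMU16, and Dp16 and Ts1Cje males were bred with C57BL/6J or C57BL/6N females. Ts65Dn mice (B6EiC3Sn.BLiA-Ts(17<16>)65Dn/DnJ) carry an extra marker chromosome that also holds the centromeric end of MMU17, and they were kept on a hybrid background. Ts1Cje mice (B6.Cg-T(12;16)1Cje/CjeDnJ) carry the distal MMU16 segment translocated to MMU12, where a few MMU12 genes are monosomic. All copy number changes were germline and present in every cell type, so none depends on a Cre driver, and the bulk arrays cannot tell more cells of a type from more RNA per cell.

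An extra copy of a gene adds template, and by simple dosage its RNA would rise in the ratio of 3 copies over 2, which is 0.58 on the log2 scale. Real genes can fall short of that ratio where feedback, tissue-restricted expression or probe background compresses the change. The 7 genes serve unrelated tasks: Rbm11 is an RNA-binding splicing regulator enriched in brain and testis. Hspa13 is a microsome-associated chaperone of the Hsp70 family, and Usp25 is a deubiquitinase that counteracts degradation of proteins from the endoplasmic reticulum. Nrip1 is a corepressor of ligand-bound nuclear receptors, Samsn1 is an SH3 and SAM domain adaptor of haematopoietic cells, and Chodl is a membrane C-type lectin that is needed for motor axon growth in zebrafish.

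Promoters are shown as the sequence context of the copies for Rbm11 and Usp25, whose log2 differences over the 4 Dp16 tissues were 0.22 to 0.59 (none past the test with all animals in), and for Samsn1 and Chodl, whose differences were -0.10 to 0.23. The promoter set used held none for Hspa13, so that gene is missing from this description. Each runs from 250 bases before to 50 bases after the start of the gene on RefSeq GRCm38.p6, 5′ to 3′ on the strand of the gene, and capitals mark GGGCGG or its complement CCGCCC.
Rbm11, chr16:75592641-75592940, plus strand: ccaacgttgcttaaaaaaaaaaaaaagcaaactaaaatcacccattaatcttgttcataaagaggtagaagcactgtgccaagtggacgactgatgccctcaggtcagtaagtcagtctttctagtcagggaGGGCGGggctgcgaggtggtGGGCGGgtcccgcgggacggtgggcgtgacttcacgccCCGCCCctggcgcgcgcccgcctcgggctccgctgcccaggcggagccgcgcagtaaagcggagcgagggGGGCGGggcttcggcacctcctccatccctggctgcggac
Usp25, chr16:77013819-77014118, plus strand: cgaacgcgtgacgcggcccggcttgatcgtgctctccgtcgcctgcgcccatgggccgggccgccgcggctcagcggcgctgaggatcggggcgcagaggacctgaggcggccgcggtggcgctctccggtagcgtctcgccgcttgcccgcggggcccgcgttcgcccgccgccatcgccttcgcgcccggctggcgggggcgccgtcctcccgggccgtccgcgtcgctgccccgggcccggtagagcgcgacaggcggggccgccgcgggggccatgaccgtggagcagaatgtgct
Samsn1, chr16:75909217-75909516, minus strand: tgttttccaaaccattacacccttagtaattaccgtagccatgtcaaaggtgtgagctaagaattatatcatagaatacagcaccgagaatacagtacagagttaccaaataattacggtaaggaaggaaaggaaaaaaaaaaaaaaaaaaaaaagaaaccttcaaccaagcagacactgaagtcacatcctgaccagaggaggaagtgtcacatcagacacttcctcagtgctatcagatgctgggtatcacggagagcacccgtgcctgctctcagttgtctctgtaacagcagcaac
Chodl, chr16:78930698-78930997, plus strand: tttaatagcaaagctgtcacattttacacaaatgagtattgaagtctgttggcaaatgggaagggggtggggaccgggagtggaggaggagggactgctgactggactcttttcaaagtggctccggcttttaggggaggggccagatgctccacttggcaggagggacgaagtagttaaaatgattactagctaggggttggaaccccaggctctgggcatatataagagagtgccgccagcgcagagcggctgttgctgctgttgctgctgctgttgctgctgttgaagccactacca
GGGCGG was found 4 times in the Rbm11 promoter and in none of the other 3, and 35.7% of the 32851 promoters in the RefSeq table hold it on either strand. CCAAT (37.4% of promoters), TATAAA (13.6%) and the ER stress element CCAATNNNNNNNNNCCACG (0.119%), which holds a CCAAT itself, were searched on both strands too and were in none of the 4 sequences. Variant forms of these motifs were not searched. The Usp25 promoter was 79% G and C with 54 CpG dinucleotides, the Rbm11 promoter 62% with 25, the Chodl promoter 52.7% with 6 and the Samsn1 promoter 41.7% with 5. The median promoter of the table was 52.7% G and C with 7 CpG dinucleotides. Nrip1, whose log2 differences in Dp16 were 0.04 to 0.26, had 2 promoters in the table, of which 1 held GGGCGG 2 times in overlapping letters. The Nrip1 promoter with GGGCGG was 73.3% G and C with 40 CpG dinucleotides, and the other 52.7% with 6. A link between base content and the differences was not tested.

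One control animal has to be described before the results. Across 56 to 62 genes from Mrpl39 to Zbtb21, which Dp16 mice also carry in 3 copies and which do not include the 7 genes, each animal was set against the other euploid animals of its table. The male labelled Eup274 lay 0.35 above them in cortex, 0.45 in hippocampus and 0.46 in cerebellum (median log2 difference), where the 5 Dp16 males lay at 0.35 to 0.44 and the other 4 euploid males at -0.10 to 0.00. The other 60 euploid values of all tables lay between -0.15 and 0.07, and the 62 trisomic values between 0.12 and 0.54. The animal labelled Eup274 was therefore at the level of 3 copies in all 3 regions, against its label, and the tests of the 6 genes in adult Dp16 tissue are given with it and without it. Leaving it out was decided after the data were seen.

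**Figure D1:**
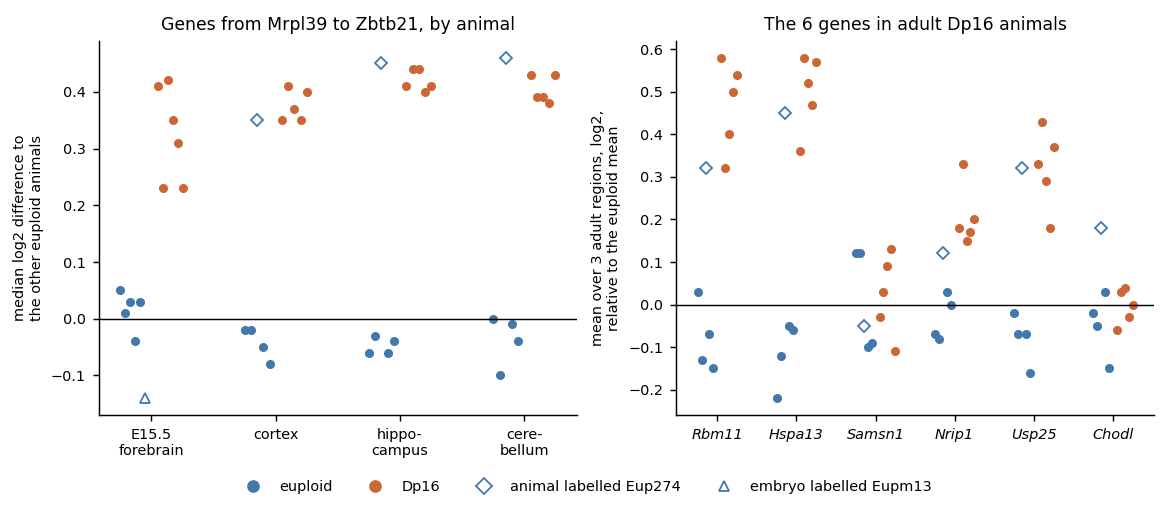
Left, median log2 difference of the genes from Mrpl39 to Zbtb21 in each Dp16 and euploid animal to the other euploid animals of the same tissue; right, mean of each of the 6 genes over the 3 adult regions, in log2 units relative to the euploid mean, for each adult male. On the left the animal labelled Eup274 (open diamond) lies at 0.35 in cortex, at the lower end of the Dp16 range, and at 0.45 and 0.46 in hippocampus and cerebellum, above the Dp16 animals. It reaches their range on the right for Hspa13, Rbm11 and Usp25.

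In the embryonic table, the embryo labelled Eupm13 had the lowest mean correlation with the other arrays (r = 0.9815, against 0.9848 to 0.9925 for the other 11), while its median difference of -0.14 was that of a euploid embryo. The tests of the 6 genes in embryos are likewise given with it and without it, a choice also made after the data were seen. Marker genes of each tissue were bright where the label places them, with a median percentile among all probe sets of 87.4 to 96.0 for E15.5 forebrain genes in forebrain, 91.9 to 93.5 for cortical genes in cortex, 64.4 to 70.9 for hippocampal genes in hippocampus and 99.2 to 99.3 for cerebellar genes in cerebellum. In the other tissues the same lists stood at 36.7 to 58.0, 36.9 to 85.3, 26.2 to 32.6 and 34.5 to 54.5, so the cortical genes separated tissues least.

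The 6 genes differed in how bright their probe sets were in euploid animals, and probe sets of different genes are not compared as RNA levels. Over the 12 tables the euploid mean of Hspa13 ranked at the 79.9 to 89.6 percentile of all probe sets, that of Usp25 at 70.7 to 91.4 and that of Nrip1 at 66.2 to 88.8. Rbm11 ranked at 27.2 to 47.1, Chodl at 14.4 to 41.1 and Samsn1 at 19.2 to 29.6, so these 3 lay in the dimmer part of the array. The part of background in their differences was not tested. The 12 tables were normalized separately, and only differences within a table were tested.

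In E15.5 forebrain the median change of the 6 genes in Dp16 embryos was 0.28 on the log2 scale, against 0.01 over all probe sets, and all 6 differences were above 0. Hspa13 rose, and was the single gene of the 6 called differentially expressed (DEX) at a false discovery rate (FDR) of 10%, where 0.0895% of all probe sets were DEX. In euploid embryos its lowest, median and highest log2 signals were 9.73, 9.98 and 10.19, and in Dp16 embryos they were 10.29, 10.45 and 10.52. Every Dp16 embryo lay above every euploid embryo. The change was 0.45 ± 0.081 (SE, n = 6 and 6), a 1.37-fold difference with a 95% interval of 1.21 to 1.54, and its adjusted P in limma was 0.0503. The methods' t-test gave an adjusted P of 0.109. With 1 embryo left out the limma value ranged from 0.0279 to 0.131, and the call was lost without any 1 of 7 embryos (Eupf01, Eupf06, Eupm02, TSf08, TSm04, TSm05 or TSm09).

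Usp25 had the largest change of the 6 genes in the embryos, 0.55 ± 0.119 (adjusted P = 0.167), and was not DEX. Its signals in euploid embryos were 9.68, 9.78 and 10.36 (lowest, median and highest) and in Dp16 embryos 10.16, 10.43 and 10.70. The single euploid embryo above 9.84 was Eupm13 at 10.36, inside the Dp16 range. Without Eupm13 the groups did not overlap, the change was 0.65 (a 1.57-fold difference, adjusted P = 0.00625) and Usp25 was DEX. Hspa13 stayed DEX without that embryo, at 0.40 (adjusted P = 0.0566), so 2 of the 6 genes were DEX where 0.17% of all probe sets were.

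Rbm11 was higher in every Dp16 embryo (6.34, 6.42 and 6.56, lowest, median and highest) than in any euploid embryo (5.96, 6.09 and 6.31). The difference of 0.32 ± 0.074 had an unadjusted P of 6.75e-04 and an adjusted P of 0.226, and was not DEX. Without Eupm13 it was 0.31 (adjusted P = 0.299). Groups without overlap were thus seen for 2 of the 6 genes, Rbm11 and Hspa13, against 0.24% of all probe sets. Without Eupm13 they were seen for 3 of 6, with Usp25, against 1.26%.

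Nrip1, Samsn1 and Chodl gave differences of 0.04, 0.17 and 0.23 in the embryos, with adjusted P of 0.981, 0.841 and 0.827. The groups overlapped for all 3 genes. Samsn1 was 5.79, 5.99 and 6.38 (lowest, median and highest) in euploid and 5.93, 6.20 and 6.43 in Dp16 embryos, and Chodl was 6.65, 6.86 and 7.03 against 6.74, 7.07 and 7.52. For Chodl 4 of the 6 Dp16 embryos lay above the highest euploid embryo. Nrip1 signals were 8.80, 9.63 and 9.71 in euploid and 9.06, 9.59 and 9.87 in Dp16 embryos. The lowest was again Eupm13, without which the Nrip1 difference was -0.10 (adjusted P = 0.904). Samsn1 then stood at 0.25 (adjusted P = 0.54, unadjusted limma value 0.0164) and Chodl at 0.27 (adjusted P = 0.63, unadjusted limma value 0.0489), and neither was DEX. Without Eupm13, 12.7% of all probe sets were higher at an unadjusted P under 0.05 in limma, against 3.41% with it. The upper 95% bounds were 0.40 for Nrip1, 0.40 for Samsn1 and 0.49 for Chodl with all embryos in, and 0.19, 0.44 and 0.53 without Eupm13, all below the 0.58 of 3 copies over 2.

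**Figure D2:**
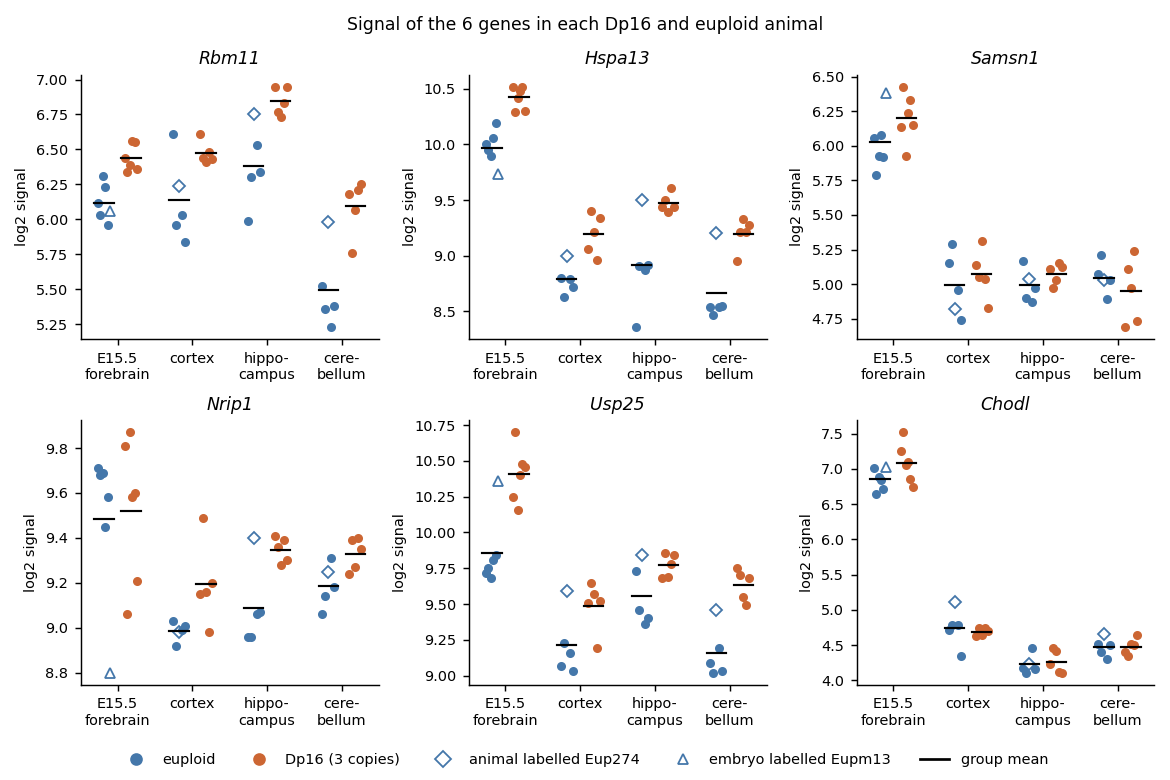
log2 signal of the 6 genes in each Dp16 and euploid animal in E15.5 forebrain and 3 adult regions; points are animals and lines are group means. Dp16 animals lie above the euploid animals for Hspa13 and Rbm11 in forebrain, and in cerebellum and hippocampus the animal labelled Eup274 (open diamond) lies among or next to the Dp16 animals for Hspa13, Rbm11 and Usp25.

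In adult cortex none of the 6 genes was DEX in Dp16 mice, where 0.00942% of all probe sets were. The median change of the 6 genes was 0.24, against -0.01 over all probe sets, and 5 of the 6 differences were above 0. Hspa13 signals were 8.63, 8.72, 8.79, 8.80 and 9.00 in euploid and 8.96, 9.06, 9.21, 9.34 and 9.40 in Dp16 males. The euploid value of 9.00 belonged to the animal labelled Eup274 and overlapped the lowest Dp16 male. The difference was 0.41 with a 95% interval of 0.19 to 0.62 (adjusted P = 0.339), and without that animal it was 0.46 (adjusted P = 0.186).

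Rbm11 in cortex was 5.84, 5.96, 6.03, 6.24 and 6.61 in euploid and 6.41, 6.43, 6.44, 6.48 and 6.61 in Dp16 males, a difference of 0.34 ± 0.125 (adjusted P = 0.72), and of 0.36 (adjusted P = 0.672) without Eup274. The Dp16 males were close together, and the euploid male 260 equalled the highest of them. Usp25 was 9.03, 9.07, 9.16, 9.23 and 9.59 in euploid and 9.19, 9.51, 9.52, 9.57 and 9.65 in Dp16 males, where 9.59 was again the animal labelled Eup274. Its difference of 0.27 (adjusted P = 0.781) became 0.37 (adjusted P = 0.399) without that animal. No gene of the 6 had groups without overlap in cortex, against 0.302% of all probe sets. Without Eup274, 1 gene, Hspa13, did, against 0.89%, and still none was DEX where 0.17% of all probe sets were.

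In adult hippocampus none of the 6 genes was DEX in Dp16 mice with all animals in, where 0.066% of all probe sets were, and none had groups without overlap, against 1.76%. Hspa13 signals were 8.36, 8.87, 8.91, 8.92 and 9.50 in euploid and 9.39, 9.44, 9.44, 9.50 and 9.61 in Dp16 males. The animal labelled Eup274, at 9.50, was inside the Dp16 range, while the other 4 euploid males were all at or below 8.92. The difference was 0.56 ± 0.153 (adjusted P = 0.456) with that animal and 0.71 ± 0.111 (adjusted P = 0.023) without it, a 1.63-fold rise.

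Rbm11 in hippocampus was 5.99, 6.30, 6.34, 6.53 and 6.75 in euploid and 6.73, 6.77, 6.83, 6.95 and 6.95 in Dp16 males, and 6.75 was the animal labelled Eup274. Its difference was 0.47 ± 0.118 (adjusted P = 0.357) with that animal and 0.56 ± 0.102 (adjusted P = 0.0658) without it. Nrip1, the nuclear receptor corepressor, was 8.96, 8.96, 9.06, 9.07 and 9.40 in euploid and 9.28, 9.30, 9.36, 9.39 and 9.41 in Dp16 males, with the animal labelled Eup274 at 9.40. The Nrip1 difference of 0.26 (adjusted P = 0.626) became 0.33 ± 0.062 (adjusted P = 0.0719). Without Eup274, 3 of the 6 genes (Hspa13, Rbm11 and Nrip1) were DEX where 0.311% of all probe sets were, and the same 3 had groups without overlap, against 3.45%. Usp25 was 9.36, 9.40, 9.46, 9.73 and 9.84 in euploid and 9.68, 9.69, 9.78, 9.84 and 9.86 in Dp16 males, and it was not DEX at 0.22 (adjusted P = 0.784) with that animal or at 0.29 (adjusted P = 0.487) without it.

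In adult cerebellum none of the 6 genes was DEX in Dp16 mice with all animals in, where 0.0188% of all probe sets were. Usp25 came nearest, at 9.02, 9.03, 9.09, 9.19 and 9.46 in euploid and 9.49, 9.55, 9.68, 9.70 and 9.75 in Dp16 males. Every Dp16 male lay above every euploid male, which held for this 1 gene of the 6 and for 0.259% of all probe sets, and the highest euploid value was the animal labelled Eup274. The difference was 0.47 ± 0.095 (adjusted P = 0.112) with that animal and 0.55 ± 0.079 (adjusted P = 0.0124) without it.

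Hspa13 in cerebellum was 8.47, 8.54, 8.54, 8.55 and 9.20 in euploid and 8.95, 9.21, 9.21, 9.28 and 9.33 in Dp16 males. Of the euploid males 4 lay between 8.47 and 8.55, and the animal labelled Eup274 stood among the Dp16 males. The difference was 0.54 ± 0.131 (adjusted P = 0.309) with it and 0.67 ± 0.085 (adjusted P = 0.00561) without it. Rbm11 was 5.23, 5.36, 5.38, 5.52 and 5.98 in euploid and 5.76, 6.07, 6.18, 6.21 and 6.25 in Dp16 males, with the animal labelled Eup274 at 5.98. Its difference was 0.59 ± 0.136 (adjusted P = 0.235) with that animal and 0.72 ± 0.106 (adjusted P = 0.0155) without it. Without Eup274, 3 of the 6 genes (Hspa13, Rbm11 and Usp25) were DEX where 0.353% of all probe sets were, and the same 3 had groups without overlap, against 1.57%.

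Choroid plexus, which can be carried along in dissection, differed between cerebellar samples: the summed signal of its 5 markers ranged from 516 to 10080 in euploid and from 8235 to 10153 in Dp16 males. Its part in the cerebellar differences of the 6 genes was not tested. Of 54 marker genes of tissues and other cell types, none was DEX in the 4 Dp16 comparisons (216 tests, of which 11 had an unadjusted P under 0.05). Without Eup274, 1 marker, Clic6 in cerebellum, was DEX, and Clic6 is itself a triplicated MMU16 gene. Of the 162 adult marker tests without that animal, 18 had an unadjusted P under 0.05 in limma.

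Samsn1 and Chodl gave no DEX call in any adult Dp16 region. Samsn1 differences were 0.08 in cortex, 0.09 in hippocampus and -0.10 in cerebellum, and those of Chodl -0.06, 0.04 and 0.00. Without Eup274 they were 0.04, 0.10 and -0.10 for Samsn1 and 0.04, 0.04 and 0.05 for Chodl. Their groups overlapped in every region, with Samsn1 between 4.69 and 5.31 and Chodl between 4.11 and 5.11 in all adult Dp16 and euploid males. Upper 95% bounds lay at most at 0.33 for Samsn1 and 0.23 for Chodl with all animals in, and at 0.31 and 0.26 without Eup274, below the 0.58 of 3 copies over 2. The Nrip1 differences in cortex and cerebellum were 0.21 (adjusted P = 0.775) and 0.14 (adjusted P = 0.823) with all animals in, and 0.21 (adjusted P = 0.75) and 0.16 (adjusted P = 0.76) without Eup274. Its upper bounds in cortex, hippocampus and cerebellum were 0.40, 0.43 and 0.30, and 0.42, 0.47 and 0.32 without that animal, also below 0.58. For Hspa13 and Rbm11 the adult intervals held 0.58 in all 3 regions, and for Usp25 in cerebellum, both with and without Eup274.

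**Figure D3:**
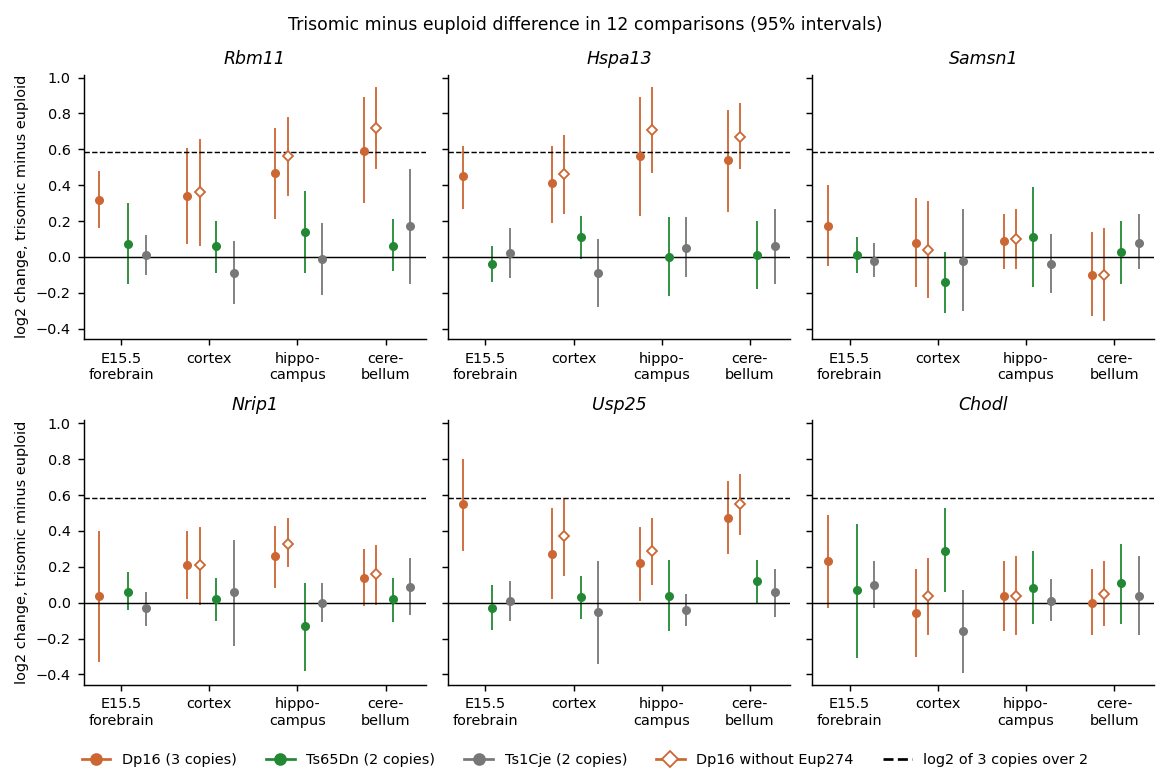
log2 difference of trisomic minus euploid animals with 95% intervals for the 6 genes in 12 comparisons; open diamonds are adult Dp16 comparisons without the animal labelled Eup274, and the dashed line is the log2 of 3 copies over 2. Hspa13, Rbm11 and Usp25 reach 0.22 to 0.59 in Dp16 with all animals in and -0.09 to 0.17 in Ts65Dn and Ts1Cje.

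In Ts65Dn and Ts1Cje mice, where all 6 genes have 2 copies, none of the 48 differences was DEX. The background in Ts65Dn was 0.264% of all probe sets in forebrain, 0.349% in cortex, 0.132% in hippocampus and 0.297% in cerebellum. In Ts1Cje it was 0.259%, 0.0424%, 0.316% and 0.429% in the same order. The differences ran from -0.16 to 0.29, and the medians of the 6 genes from -0.07 to 0.07. At an unadjusted P under 0.05, 1 of the 48 remained, Chodl in Ts65Dn cortex. Chodl signals there were 4.04, 4.32, 4.42, 4.49 and 4.51 in euploid and 4.38, 4.58, 4.67, 4.70 and 4.92 in Ts65Dn males, a difference of 0.29 with an adjusted P of 0.719. The 2 groups overlapped through 1 Ts65Dn male.

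Hspa13 differences ranged from -0.09 to 0.11 in these 2 models, and none was DEX. In Ts65Dn it was 9.71 ± 0.08 (SD) in forebrain of 7 euploid and 9.67 ± 0.08 of 6 trisomic embryos, 8.66 ± 0.08 and 8.77 ± 0.03 in cortex, 8.40 ± 0.10 and 8.40 ± 0.19 in hippocampus, and 8.58 ± 0.16 and 8.60 ± 0.13 in cerebellum. In Ts1Cje it was 10.51 ± 0.15 and 10.53 ± 0.05 in forebrain (n = 5 and 5), 8.99 ± 0.11 and 8.90 ± 0.11 in cortex, 8.76 ± 0.13 and 8.81 ± 0.12 in hippocampus, and 8.68 ± 0.17 and 8.75 ± 0.16 in cerebellum. Each adult group held 5 males. The groups overlapped in all 8 comparisons, for Hspa13 as for the other 5 genes.

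Usp25 differences ranged from -0.05 to 0.12, with the largest in Ts65Dn cerebellum, where it was 9.17 ± 0.03 in euploid and 9.29 ± 0.08 in trisomic males (adjusted P = 0.807). Rbm11 differences ranged from -0.09 to 0.17, with the largest in Ts1Cje cerebellum, where it was 5.54 ± 0.28 and 5.71 ± 0.30 (adjusted P = 0.883). Neither gene was DEX there. Nrip1 differences ranged from -0.13 to 0.09, those of Samsn1 from -0.14 to 0.11 and those of Chodl from -0.16 to 0.29. In Ts1Cje cortex the array of the euploid male labelled Eup347 stood apart (mean r = 0.9732 with the other arrays), and none of the 6 genes was DEX there with or without it.

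Since the 3 regions came from the same males, the mean of each male over the 3 regions was also tested, with 1 value per animal. Rbm11 and Hspa13 rose in Dp16 males, by 0.47 ± 0.084 (adjusted P = 0.0331) and 0.50 ± 0.101 (adjusted P = 0.0723), so 2 of the 6 genes were called at an FDR of 10% against 0.203% of all probe sets. Relative to the euploid mean, Rbm11 was -0.15, -0.13, -0.07, 0.03 and 0.32 in euploid and 0.32, 0.40, 0.50, 0.54 and 0.58 in Dp16 males. Hspa13 was -0.22, -0.12, -0.06, -0.05 and 0.45 in euploid and 0.36, 0.47, 0.52, 0.57 and 0.58 in Dp16 males. The animal labelled Eup274 was the highest euploid male for both genes and the only one to reach the Dp16 range. Nrip1 was the single gene of the 6 whose groups did not overlap with all animals in, against 0.848% of all probe sets. It lay at -0.08 to 0.12 in euploid and 0.15 to 0.33 in Dp16 males, a difference of 0.20 ± 0.053 (adjusted P = 0.236) that was not called. Without Eup274 the groups of Rbm11, Hspa13, Nrip1 and Usp25 did not overlap, 4 of the 6 genes against 2.62% of all probe sets.

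Both adult calls depended on single males. That of Rbm11 was lost without Eup263, TS254 or TS278, where the adjusted P was 0.102 to 0.11, and that of Hspa13 without any male other than Eup274 and TS254, where it was 0.138 to 0.18. Under the methods' t-test the adjusted P was 0.251 for Rbm11 and 0.33 for Hspa13. Without Eup274, 4 of the 6 genes were called, against 0.763% of all probe sets: Hspa13 at 0.61 (adjusted P = 1.59e-04), Rbm11 at 0.55 (adjusted P = 6.85e-04), Usp25 at 0.40 (adjusted P = 0.00372) and Nrip1 at 0.23 (adjusted P = 0.0996). Usp25 lay between -0.16 and -0.02 in the other 4 euploid males, at 0.32 in Eup274 and between 0.18 and 0.43 in Dp16 males. Intervals then ran from 0.49 to 0.74 for Hspa13 and 0.41 to 0.68 for Rbm11, which hold 0.58. Those of Usp25 (0.28 to 0.52) and Nrip1 (0.12 to 0.34) lay below it.

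None of the 6 genes was called over the adult regions of Ts65Dn, against 0.424% of all probe sets, or of Ts1Cje, against 0.41%. Chodl was higher in all 5 Ts65Dn males (0.09 to 0.25 relative to the euploid mean) than in the 5 euploid males (-0.08 to 0.04), which held for 1.47% of all probe sets. The Chodl difference of 0.16 ± 0.045 had an unadjusted P of 0.00315 and an adjusted P of 0.295. It was 2 copies against 2, and Chodl gave no call there.

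Whether the change in Dp16 differed from that in the models with 2 copies was tested directly, as the Dp16 change minus the mean of the Ts65Dn and Ts1Cje changes in the same tissue. The 6 groups of a tissue were fitted together, with the variance of each gene pooled over the 3 models. Usp25 had an SD of 0.25 in euploid and 0.19 in Dp16 embryos, and of 0.10 and 0.07 in the Ts1Cje table. For Ts65Dn the values were 0.06 and 0.14. The pooled SE of its contrast, 0.107, was below the 0.119 of its Dp16 change alone, which was not DEX. The contrast was not tested with separate variances. In E15.5 forebrain the difference was 0.46 ± 0.081 for Hspa13 (adjusted P = 0.0314) and 0.55 ± 0.107 for Usp25 (adjusted P = 0.0951), so 2 of the 6 genes were called where 0.0141% of all probe sets were, which is 3 probe sets in all. Without Eupm13 the same 2 were called, Usp25 at 0.66 (adjusted P = 1.82e-04) and Hspa13 at 0.41 (adjusted P = 0.0349), where 0.127% of all probe sets were. Set against Ts65Dn alone, both were called, Hspa13 at 0.49 (adjusted P = 0.0327) and Usp25 at 0.57 (adjusted P = 0.0809). Set against Ts1Cje alone, neither was, at 0.43 (adjusted P = 0.35) and 0.54 (adjusted P = 0.495). The Usp25 call was also lost without any 1 of 9 embryos (Eupf01, Eupf06, Eupm02, Eupm03, Eupm07, TSf11, TSm05, TSm09 or TSm10), with an adjusted P of 0.144 to 0.197.

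In the adult regions none of the 6 genes was called in this contrast with all animals in, against 0.0141% of all probe sets in cortex, 0.0141% in hippocampus and 0.00471% in cerebellum. Usp25 in cerebellum was nearest, at 0.39 ± 0.085 (adjusted P = 0.251). Without Eup274 none was called in cortex, against 0.0141%, and 1 was called in hippocampus, against 0.0236%: Hspa13 at 0.68 (adjusted P = 0.0499). In cerebellum 2 were called, against 0.0283%: Usp25 at 0.46 (adjusted P = 0.00778) and Hspa13 at 0.64 (adjusted P = 0.0493). Rbm11 stood at 0.60 there with an adjusted P of 0.452, and its difference from the models with 2 copies was not called in any tissue.

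Differences of the Dp16 change between adult regions were tested with the animal as a block. None of the 6 genes was called between cortex and hippocampus, cortex and cerebellum or hippocampus and cerebellum, and the share of all probe sets called was 0%, 0% and 0%. At an unadjusted P under 0.05, 655, 900 and 575 probe sets passed in limma, and none of the 6 genes did. The lowest P among them was that of Usp25, whose change in hippocampus minus that in cerebellum was -0.26 on the log2 scale (unadjusted limma value 0.0751, 95% interval -0.55 to 0.03). The intervals of Rbm11 and Hspa13 reached from -0.63 to 0.25 and from -0.54 to 0.41 over the 3 contrasts, so differences between regions within these bounds were not excluded with 5 males a group. Without Eup274 none of the 6 genes was called either, against 0.00471%, 0.0377% and 0.00942% of all probe sets. Unadjusted limma values under 0.05 were then seen for Usp25 in hippocampus minus cerebellum (-0.26, 0.0323) and Rbm11 in cortex minus cerebellum (-0.35, 0.0482). At that limit 844, 1158 and 734 of all probe sets passed in the 3 contrasts.

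Among the 11 other probe sets between Lipi and Ncam2, 3 were DEX in Dp16 hippocampus: Cxadr, a receptor at cell junctions (0.37, adjusted P = 0.0731), Ncam2, a neural cell adhesion molecule (0.57, adjusted P = 0.0658), and D16Ertd472e (0.54, adjusted P = 0.0645). The share of all probe sets DEX in Dp16 hippocampus was 0.066%. With all animals in, none of the 11 was DEX in the other 3 Dp16 tissues, or in the 88 tests of Ts65Dn and Ts1Cje. Ncam2 had no overlap between Dp16 and euploid animals in any of the 4 tissues and changes of 0.52 to 0.74. Within a single tissue, 0.24% to 1.76% of all probe sets had no overlap. Without Eup274 there were 6 DEX calls, with Ncam2 in all 3 adult regions, Cxadr and D16Ertd472e in hippocampus and D16Ertd472e in cerebellum. Of all probe sets 0.17% were then DEX in cortex, 0.311% in hippocampus and 0.353% in cerebellum. Without Eupm13, Ncam2 was also DEX in E15.5 forebrain, at 0.82 (adjusted P = 0.0309), where 0.17% of all probe sets were. Tmprss15, an intestinal protease gene, and Lipi, a lipase gene, were dim, with euploid means between 3.18 and 4.22, and were not DEX.

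The microRNA genes Mir99a and Mirlet7c-1, which share a host transcript next to Usp25, had the largest embryonic differences of the stretch, 1.06 and 1.29, and are named because of those values. Mir99a ranged from 7.50 to 9.43 in euploid and from 7.93 to 10.03 in Dp16 embryos, so the groups overlapped widely. Neither was DEX, with adjusted P of 0.734 and 0.755.

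The neighbouring genes on both sides were measured too. The 10 genes just before Lipi, with 2 copies in every model, had medians of 0.00 to 0.03 in the 4 Dp16 tissues and no DEX call in 40 tests. The first 10 genes from Mrpl39 on, with 3 copies in Dp16 and Ts65Dn, had medians of 0.27 to 0.40 and 4 DEX calls in 40 tests. The 6 genes, with medians of 0.24 to 0.31 and 1 DEX call in 24 tests, had a lower median than the distal genes in every tissue, as a description of these lists. Of all probe sets 0.0895% were DEX in forebrain, 0.00942% in cortex, 0.066% in hippocampus and 0.0188% in cerebellum. Without Eup274 the 3 adult regions gave 18 DEX calls in 30 tests for the distal genes (medians 0.38 to 0.48), 6 in 18 for the 6 genes (0.29 to 0.35) and 0 in 30 for the genes before Lipi (-0.02 to 0.02). Without Eupm13 the forebrain gave 4 of 10, 2 of 6 and 0 of 10. With these animals left out, 0.17% of all probe sets were DEX in forebrain, 0.17% in cortex, 0.311% in hippocampus and 0.353% in cerebellum.

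**Figure D4:**
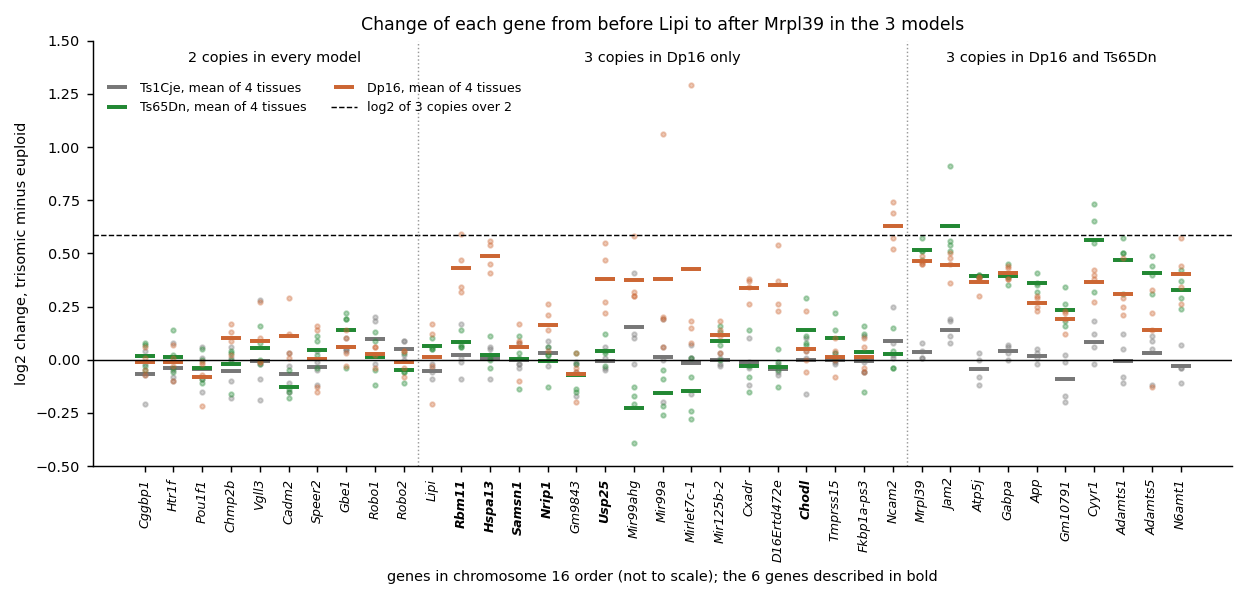
log2 difference of trisomic minus euploid animals for 37 genes of MMU16 in chromosome order (not to scale), from 10 genes before Lipi to 10 genes from Mrpl39 on; points are single tissues, bars are means over 4 tissues, and the dashed line is the log2 of 3 copies over 2. Between Lipi and Ncam2 the Dp16 means are 0.43 for Rbm11, 0.49 for Hspa13, 0.38 for Usp25, 0.34 for Cxadr, 0.35 for D16Ertd472e and 0.63 for Ncam2, while Mir99ahg lies away from 0 in all models (0.38 in Dp16, -0.23 in Ts65Dn and 0.15 in Ts1Cje). From Mrpl39 on, the Dp16 and Ts65Dn means lie above 0 for all 10 genes.

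Genes listed with the 7 genes, mostly paralogs and partners, with 2 copies in every model, did not pass the test in Dp16. Of 74 genes listed, 71 had a probe set, and none was DEX in 284 tests over the 4 tissues, of which 14 had an unadjusted P under 0.05. In the Hsp70 family of Hspa13 (13 genes measured) the medians were -0.04 to 0.06, and the lowest P was that of Hspa1l in hippocampus, at -0.24 (adjusted P = 0.533). For the 12 genes around Usp25, which hold its paralog Usp28 and the degradation machinery of the endoplasmic reticulum, no test had an unadjusted P under 0.05. The 22 genes listed with Nrip1 were nuclear receptors, corepressors, the histone deacetylase Hdac3, and the similarly named Nrip2 and Nrip3. Of these, Nrip3 had the lowest P, in cerebellum, at 0.24 (adjusted P = 0.637).

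For the 4 genes around Rbm11, its paralog Rbm7 and the nuclear exosome targeting genes, Mtrex in hippocampus came first, at 0.16 (adjusted P = 0.764). The adaptors related to Samsn1 and the lectins related to Chodl gave no unadjusted P under 0.05, and of the 14 BTG/TOB and deadenylase genes Cnot7 in hippocampus was at 0.15 (adjusted P = 0.663). Without Eup274, no listed gene was DEX in the 213 tests of adult tissue, of which 11 had an unadjusted P under 0.05 in limma.

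The pattern of changes over the 12 comparisons was alike for 3 of the genes. Pearson's r was 0.93 between Rbm11 and Hspa13, 0.86 between Hspa13 and Usp25 and 0.84 between Rbm11 and Usp25, with 0.70 between Hspa13 and Nrip1. These are descriptions over 12 points that share animals between regions, and the 4 Dp16 points differ from the other 8 in copy number, strain and array table, which cannot be told apart here. Outside the triplicated segment, the probe sets most like Rbm11 were Rxylt1 (0.94) and Tank (0.92), and those most like Hspa13 were Krit1 (0.94) and Pkia (0.91). For Usp25 they were Gm6985 (0.88) and Pkia (0.88), for Nrip1 Igkv12-46 (0.90) and Rnf2 (0.90), for Samsn1 H2-M3 (0.89) and Vtcn1 (0.87), and for Chodl Tas2r110 (0.89) and Cyp2c54 (0.89).

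Among the 20 probe sets most like Rbm11 were Hspa13, Ncam2 and D16Ertd472e, and among those most like Hspa13 were Rbm11, Ncam2 and D16Ertd472e. Usp25 had Hspa13, Rbm11 and Ncam2 among its 20. Samsn1, Nrip1 and Chodl had no gene of the stretch from Lipi to Ncam2 among theirs. With Spearman's rho in place of Pearson's r, Hspa13 had none either, Rbm11 had Usp25 alone, and Usp25 had Rbm11 and Ncam2.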

How the data were processed

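The authors hybridized RNA of 1 tissue per array to Affymetrix Mouse Gene ST 1.0 arrays and deposited log2 signals made by RMA (background correction, quantile normalization and probe summarization) with a custom probe set definition, version 15, in R version 3.1.2 or later, separately for each model and tissue. The genome build of that definition is not given in the sources used here. The 12 deposited log2 tables were used as given. They equal the whole-series table to within 5.0e-09. Of 21225 probe sets, 20768 were named by Entrez ID through RefSeq. Arrays have no sequencing depth, and their number limits the precision.

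Groups, tissues and animal numbers were taken from the sample titles, and conditions were compared over animals. Repeat arrays of 2 Ts1Cje males were averaged. Trisomic and euploid littermates were compared in each table by limma 3.58.1 (R 4.3.3, lmFit and eBayes, no filter), and P values of the 12 comparisons were adjusted together by Benjamini-Hochberg, with DEX below an FDR of 10%. Model differences were contrasts of contrasts in a joint fit of the 6 groups of a tissue, with pooled variance, adjusted over 4 tissues. Region differences used duplicateCorrelation (statmod 1.5.0) by animal, with a correlation of 0.0691, adjusted over 3 contrasts. Means of each male over its regions were adjusted over 3 models. The trisomic and euploid groups share no animal numbers. Litters are not given in the labels.

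The 7 genes and the gene lists were chosen with earlier results of these data known. All 7 genes are named, as are other genes of the stretch and of the lists if DEX in Dp16 or among the 3 lowest P of a list, and, for likeness, the 2 highest r outside the triplicated segment. Alternatives covered the test (the methods' unpaired t-test), moderation, FDR, array weights, joint fits, centring, quantile normalization, dim probe sets, sex, repeats, fold limits and single animals left out. Leaving out the animal labelled Eup274 from its 3 regions together was added after the data were seen. So was giving the embryonic tests without Eupm13. The scripts were tested on simulated data. Python 3.11.15 with pandas 2.3.3 was used for tables and sequences.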

Additional observations from a re-analysis of the deposited data

Results flagged for a closer look

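Of 144 groups of values of the 6 genes, 7 held a sample far from the others (a gap over the range of the group above the critical value for its size), and chance gives about 5% of groups. In the Dp16 table of E15.5 forebrain the embryo labelled Eupm13 stood apart for 2 genes. Nrip1 was 8.80 there and 9.45 to 9.71 in the other 5 euploid embryos (gap over range 0.711), and Usp25 was 10.36 against 9.68 to 9.84 (0.775). The male labelled Eup274 stood apart in Dp16 hippocampus for Nrip1, at 9.40 against 8.96 to 9.07 (0.747), and in Dp16 cerebellum for Hspa13, at 9.20 against 8.47 to 8.55 (0.887). In Ts1Cje cerebellum the euploid male labelled Eup347 was low for Hspa13, at 8.39 against 8.71 to 8.80 (0.767), and for Nrip1, at 9.03 against 9.32 to 9.36 (0.875). In Ts65Dn forebrain the trisomic embryo TSm01 was high for Chodl, at 7.18 against 5.82 to 6.29 (0.655). Causes were not tested.

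The effect of trisomy in E15.5 forebrain differed between Dp16 and the mean of the 2 other models for Hspa13, by 0.46 (adjusted P = 0.0314 in limma), and for Usp25, by 0.55 (adjusted P = 0.0951). Both come from a fit with the variance of each gene pooled over the models.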

How the results depend on the processing

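Counts of the 6 genes called were within 1.5 times the reported count in 147 of 174 other settings and in 196 of 227 fits with 1 animal left out. Both totals include the results of Ts65Dn and Ts1Cje and the region differences, where the reported count was 0. The count over the adult Dp16 regions, reported as 2, changed whichever male was left out. In Dp16 forebrain, where 1 gene was DEX, 0 were DEX under the methods' t-test and at an FDR of 5%, 2 at 20% and in a fit of all 6 groups of the tissue, and 3 with array weights and under the rule of an unadjusted P under 0.05 with a fold change above 1.2 or below 0.8. In Dp16 cortex (0 DEX) the joint fit gave 1 and that fold rule 3, and in hippocampus (0 DEX) both gave 2. In cerebellum (0 DEX) an intensity trend, an FDR of 20%, array centring, repeated quantile normalization and probe sets above the table's median each gave 1, and array weights, the joint fit and the fold rule 3. The fold rule also gave 1 in Ts65Dn cortex, Chodl. Without the fold limit, 3.41% of all probe sets were higher in Dp16 forebrain at an unadjusted P under 0.05 in limma. That share was 2.04% in Dp16 cortex, 5.36% in hippocampus and 1.88% in cerebellum, and 3.33% in Ts65Dn cortex. For the other tests, thresholds, weights, fits and normalizations above, the share of all probe sets is not given here, so those counts cannot be set against it. Over the adult regions of Dp16 the t-test gave 0 in place of 2. The forebrain contrast between models gave 0 in place of 2 against Ts1Cje alone and 1 with arrays centred. Without Eup274 in its 3 regions together the counts became 3 in hippocampus, 3 in cerebellum and 4 over the adult regions, and 1 and 2 for the contrast between models in hippocampus and cerebellum. With 1 animal left out, counts ran from 0 to 2 in forebrain, 0 to 3 in hippocampus, 0 to 3 in cerebellum, 0 to 4 over the adult regions, and, for the contrast between models, 1 to 2 in forebrain, 0 to 1 in hippocampus and 0 to 2 in cerebellum. The cause was not tested, beyond the animals left out. Samsn1 and Chodl were called in 0 of 336 Dp16 fits at an FDR of 10%.

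In these settings signs turned for differences of Nrip1, Chodl and Samsn1, none of them called. Nrip1 in forebrain was -0.03 with array weights and -0.10 to 0.13 with 1 embryo left out, and its contrast between models was -0.02 against Ts65Dn alone and -0.11 to 0.12 with 1 embryo left out. Chodl was 0.04 in cortex and over the adult regions without Eup274, and with 1 animal left out ran from -0.16 to 0.04 in cortex, -0.01 to 0.09 in hippocampus, -0.04 to 0.05 in cerebellum and -0.04 to 0.04 over the regions. Its contrast between models, -0.12 in cortex and -0.01 in hippocampus, was 0.10 and 0.03 against Ts1Cje alone, with -0.06 to 0.05 in hippocampus when 1 animal was left out. Samsn1 was 0.00 to 0.06 over the adult regions with 1 animal left out, and its hippocampal contrast against Ts65Dn alone was -0.02.

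No paired analysis of trisomic and euploid littermates was possible because litters are not given in the labels, and litter is not in the fits. For the region differences, the fit with no replicate block gave 0, 0 and 0 calls among the 6 genes, as with the block. The probe sets of Samsn1, Chodl and Rbm11 were dim, and the part of background in their differences was not tested.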
